A study of Homo sapiens with 9 samples.

Results

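Strong focal SRA peaks are narrow chromatin regions recovered from K562 cells with probes against steroid receptor RNA activator (SRA), a long non-coding RNA. Members were chosen by measured values, namely an identical start and end in the 3 SRA peak lists, a peak score of at least 50 in each of them, a width of at most 1000 bp, a position on chromosomes 1 to 22 or X, and no base in common with a LacZ peak. Of 8658 distinct SRA peaks, 1859 had identical coordinates in the 3 lists, and 1782 of these also met the conditions on chromosome, width and LacZ. The score condition then kept 253 peaks (14.2% of the 1782), and the other 1529, which scored below 50 in at least 1 list, are called weaker shared peaks here. Because score and coordinates made this division, the scores of members are a description and were not tested.

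K562 is an established human erythroleukemia line that carries erythroid features, and the cells received no treatment. Chromatin isolation by RNA purification followed by sequencing (ChIRP-seq) was carried out on 3 SRA samples with custom probes to SRA and on 3 LacZ samples with probes to a bacterial transcript that the cells lack, and 3 further samples were input chromatin. A peak list for each SRA and LacZ sample was used, whereas input samples were not analysed here. Positions are given in hg19, and with peaks but no reads in the lists the sequencing depth is unknown.

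SRA is transcribed from the SRA1 locus, whose spliced forms include non-coding transcripts and messengers for a protein. The RNA was first described as a coactivator of steroid receptors and is also known to associate with the insulator protein CTCF and with the DEAD-box helicase p68. A ChIRP peak marks chromatin that was crosslinked to the RNA directly or through other molecules, and probes can also recover DNA without the RNA, which is why LacZ probes are run beside them.

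The label "strong" describes a rank inside these lists and not a distance from the control lists. Peaks scoring at least 50 made up 17.9, 19.2 and 19.7% of SRA lists 1, 2 and 3, respectively. In LacZ lists 1, 2 and 3 the shares were 19.6, 18.3 and 21.7%. A score of 50 was therefore reached by similar shares of SRA and LacZ peaks. No focal peak on these chromosomes had identical coordinates in any pair of LacZ lists, whereas 2673 to 2712 did so in the pairs of SRA lists. LacZ list 3 had 290 peaks with a median width of 1114 bp, so its pairs say little, whereas LacZ lists 1 and 2 had 2676 and 2617 peaks with a median of 155 bp. Identical coordinates were part of the choice of members, and nothing about the probes was read from this contrast. Wherever peaks of different SRA lists overlapped, their starts and ends were identical, so the SRA lists were counted as 1 sample and the spread between their scores is not a replicate error. The label "focal" comes from the width limit of 1000 bp, which was part of the choice. Members had a median width of 183 bp, against 155 bp in weaker shared peaks, so narrowness is not particular to them.

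As a description of the values that made the choice, every score was at least 50 in 241 of 3944 focal peaks present in 1 SRA list (6.11%), in 195 of 2665 present in 2 lists (7.32%) and in the 253 of 1782 present in 3. Among the 1782 shared peaks, 975 were below 50 in every list, 251 reached it in 1 list and 303 in 2 lists. Among shared peaks of at most 1000 bp, the LacZ condition removed none with a strong score. The width limit left out 29 strong-scoring peaks, and without it the rule gave 279 members. With 1 SRA list left out, 433, 402 and 422 peaks met the rule without list 1, 2 and 3, respectively. A rule over fewer lists can only keep or gain peaks. Ranges given after a share further on are 95% Wilson intervals and cover counting error only.

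Most members lay close to the score floor. The lowest of the 3 scores was between 50 and 60 in 210 members, between 60 and 70 in 32, between 70 and 80 in 6, between 80 and 100 in 3, and at 100 or more in 2. Median scores were 57.5, 57.1 and 56.3 in SRA lists 1, 2 and 3, against 45.01, 45.32 and 45.47 in weaker shared peaks. Just inside the floor were chr16:87933816-87933968, with 50.05 in each list, chr20:36305988-36306153, with a lowest score of 50.06, and chr8:98887750-98887921, with a lowest score of 50.1. Just outside it were chr6:3109477-3109797, with scores of 64.96, 49.95 and 59.54, and chr18:53423736-53423860 and chr3:181765628-181765752, each with 49.98 in every list. The peak on chromosome 6 was above the members' median in list 1 and missed the floor in list 2 alone, so the floor divides a continuous range.

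Members were ranked by the lowest of the 3 scores. The highest was chr17:78805401-78805737, which is 337 bp wide and scored 179, 185 and 207 in SRA lists 1, 2 and 3. Its closest LacZ peaks were 49.4, 190 and 97.9 kb away in LacZ lists 1, 2 and 3. The next was chr4:40297079-40297659, which is 581 bp wide and scored 147, 192 and 219. These 2 peaks alone exceeded 100 in every list.

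The third-ranked member, chr6:58776480-58777008, scored 129, 150 and 93.5 and differed from the first 2 in its surroundings. A peak of LacZ list 2 lay 0.052 kb from it, the shortest distance from any member to a LacZ peak. It also lay 2.37 kb from the widest peak-free stretch of chromosome 6, which is the longest interval of the chromosome without a peak of any list. The sixth-ranked member, chr7:61969202-61969669, scored 113, 136 and 78.3 and was 727 kb from the widest such stretch of chromosome 7. Both peaks scored lower in list 3 than in lists 1 and 2, with ranges of 56.9 and 58.2 across lists.

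Ranks 4 and 5 were more even. The peak chr1:201227149-201227415 scored 91.3, 89.9 and 94.6, and chr16:89938264-89938611, close to the end of the long arm, scored 83.7, 86.8 and 97.3. The narrow peak chr16:12502211-12502288, of 78 bp, followed at rank 7 with 76.25 in every list. The peak chr9:130924634-130925112 scored 75.6, 95.3 and 81.5, and chr8:141007881-141008206 scored 94.8, 98.5 and 72.0. From rank 6 on, the lowest score was below 80, and rank 20 was reached at 66.75.

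The other members of the first 20 lay on chromosomes 5, 1, 6, 20, 15, 19 and 2. On chromosome 5, chr5:6768658-6768832 scored 71.5, 70.6 and 80.8, and chr5:159497457-159497573 scored 69.9, 69.9 and 68.6. On chromosome 1, chr1:23928262-23928584 scored 70.6, 74.1 and 70.2, chr1:31326985-31327341 scored 70.5, 67.6 and 84.3, and chr1:12949454-12949534 scored 66.75 in every list. Chromosome 15 held chr15:28344852-28345203, with 67.9, 84.6 and 89.0, and chr15:91131603-91131779, with 67.7, 70.2 and 70.7. These peaks lay between 6.42 and 1022 kb from the nearest peak of LacZ list 1, and between 92.3 and 438 kb from that of LacZ list 2, so their distance from LacZ list 1 varied more. The last 4 were chr6:150781716-150781937 with a lowest score of 69.9, chr20:31282997-31283243 with 69.7, chr19:1728341-1728592 with 66.8 and chr2:11128153-11128238 with 66.8. The first 20 spread over 13 chromosomes, and 10 of them were wider than 300 bp.

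**Figure D1:**
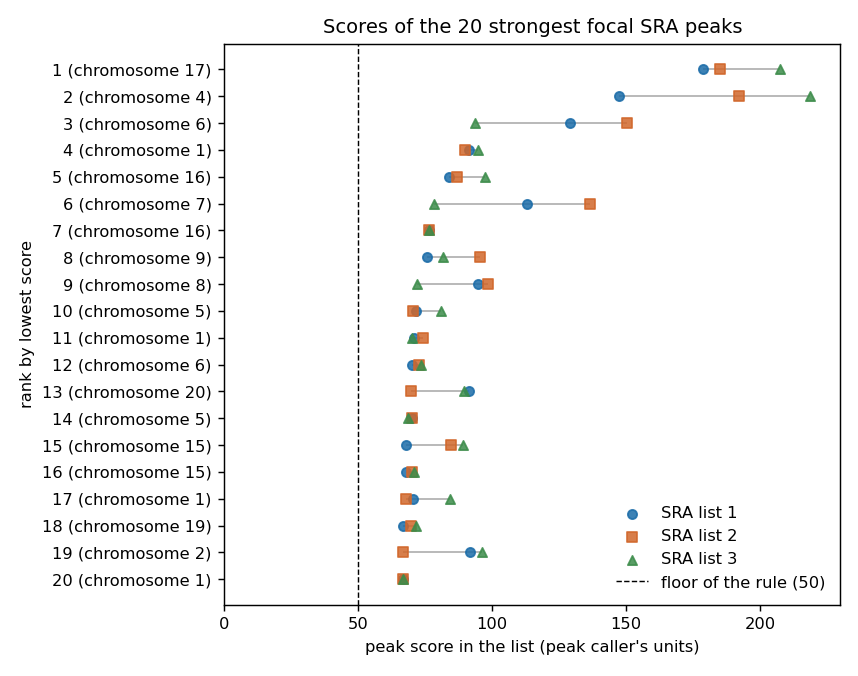
Scores (horizontal axis, units of the peak caller) of the 20 strong focal SRA peaks with the highest lowest score (vertical axis, by rank and chromosome) in SRA lists 1, 2 and 3, with the floor of 50 as a dashed line. The first 2 peaks have the highest lowest scores, 179 and 147, and the peaks at ranks 2, 3 and 6 have the longest lines, with ranges of 71.3, 56.9 and 58.2 across lists.

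On chromosomes absent from the first 20, the highest members were modest. Chromosome 22 held chr22:43522680-43522760, which tied with rank 20 at 66.75 in every list. The highest on chromosome 11 was chr11:8948198-8948272 with a lowest score of 64.2, on chromosome 18 chr18:543418-543604 with 63.3, on chromosome 12 chr12:46652888-46653200 with 62.4, and on chromosome 10 chr10:67079528-67079613 with 59.3. The peak on chromosome 18 reached 94.7 in list 1, so its place rests on list 3. On chromosomes 21 and 3 the highest were chr21:11085176-11085403 with 57.7 and chr3:157303642-157303768 with 56.1. Chromosome 14 followed with chr14:55711800-55711915 at 52.8, chromosome X with chrX:118756012-118756131 at 51.5, and chromosome 13 with chr13:19645792-19645912 at 51.2, and each of these 3 had 1 score in all lists.

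Scores of a member differed between lists by a median of 5.83 units from lowest to highest, against 4.07 units in weaker shared peaks. The range passed 20 units in 24 members (9.49%) and in 64 weaker peaks (4.19%), with the limit of 20 set after the values were seen. These are the scores that divided the sets, and higher scores leave room for a wider range, so nothing was read from the difference. Across members, Spearman's rho between lists was 0.53 to 0.56 (n = 253 peaks of the same 3 lists, which share coordinates and are not independent). Over the 1782 shared peaks it was 0.58 to 0.62. Pearson's r had the other order, with 0.76 to 0.84 across members and 0.68 to 0.75 over the 1782 shared peaks. No list was consistently highest, since lists 1, 2 and 3 alone held the highest score in 62, 62 and 67 members.

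A part of the members carried exactly the same score in the 3 lists. This held for 36 members (14.2%) and for 256 weaker shared peaks (16.7%), and 26 further members had equal scores in 2 lists. The 36 members were 237 bp wide at most, with a median of 147.5 bp. Equal scores also occurred between distant members. A score of 66.75 in every list was found at chr1:12949454-12949534 and chr22:43522680-43522760, both 81 bp wide, and 3 other pairs of members on different chromosomes shared a score and a width, at 51.65 (147 bp), 51.5 (120 bp) and 51.49 (177 bp). Among the 256 weaker peaks with 1 score in all lists, 518 pairs had equal scores, and 444 of these pairs also had equal widths. Most pairs of equal score, but not all, thus had equal widths, and the reason was not tested.

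Members were wider than weaker shared peaks. Their median width was 183 bp (interquartile range 147 to 244 bp, extremes 74 and 960 bp), against 155 bp (132 to 185 bp, extremes 80 and 943 bp). Width and score come from the same peak call, so this difference is not independent of the choice of members. Widths over 300 bp were found in 31 members (12.2%, 8.77 to 16.9%) and 59 weaker peaks (3.86%, 3.003 to 4.945%). Raising the floor to 60, 75 and 100 left 43, 8 and 2 members with median widths of 247, 408 and 459 bp. The limits of 100, 300 and 500 bp used to describe widths were set after the values were seen.

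The widest members concentrated on a segment of chromosome 22. Of 8 members over 500 bp, 4 were on this chromosome, including the 3 widest of all. These were chr22:19975620-19976579 (960 bp, scores 70.8, 64.4 and 63.1), chr22:20211741-20212592 (852 bp, scores 55.8, 55.7 and 71.2) and chr22:19460993-19461826 (834 bp, scores 59.9, 51.9 and 53.8). The segment from 19 to 24 Mb held 6 of the 7 members of chromosome 22, with a median width of 752.5 bp. Weaker shared peaks of the same segment, 11 of 33 on the chromosome, were wide as well, with a median of 552 bp, so great width there was common to both classes. The segment was singled out after the values were seen, and copy number was not analysed here.

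Narrow members were a small class at the other end. The narrowest were chr15:42303924-42303997 (74 bp, scores 60.8, 71.2 and 68.8), chr11:8948198-8948272 (75 bp, scores 66.75, 66.75 and 64.2) and chr16:12502211-12502288 (78 bp). Widths under 100 bp were found in 11 members on 8 chromosomes (4.35%, 2.45 to 7.62%) and in 37 weaker peaks (2.42%, 1.76 to 3.32%), and these intervals overlap. The 11 had a median lowest score of 60.8, above the median of 53.8 for the 253 members, and 3 of the first 20 members were among them. The lowest scores of the 11 ran from 50.97, close to the floor, to 76.25. Scores chose the members, so these values are a description and nothing about width was read from them.

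**Figure D2:**
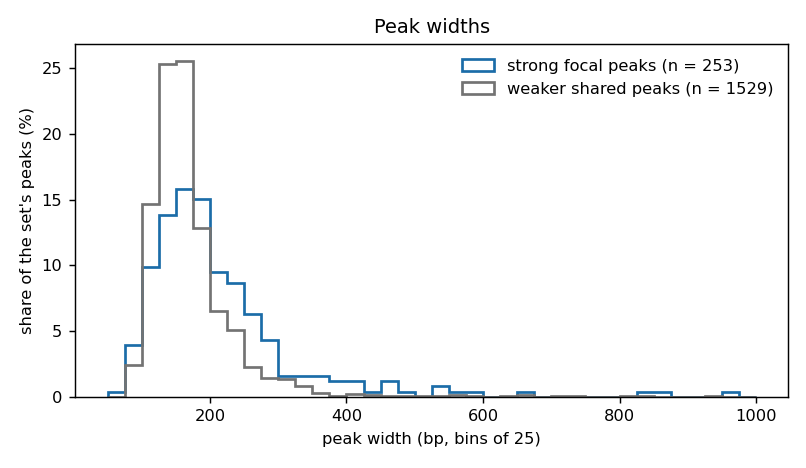
Distribution of peak width (horizontal axis, bp, bins of 25) as a share of each set (vertical axis, percent) for 253 strong focal SRA peaks and 1529 weaker shared peaks. The strong peaks have the lower maximum and the heavier right side, with medians of 183 and 155 bp.

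Each of the 23 chromosomes held at least 1 member. Chromosomes 1, 7 and 19 held 33, 21 and 19 members, together 73 (28.9%). Chromosomes 13, 21 and X held 1 member each. The share of members was above that of weaker peaks on 11 chromosomes and below it on 12, and for every chromosome the 95% intervals of the 2 shares overlapped.

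The ratio of both shares was highest on chromosomes 20 (1.58), 9 (1.48), 7 (1.37), 10 (1.36) and 17 (1.30). Chromosome 20 held 11 members (4.35%, 2.45 to 7.62%) against 2.75% (2.04 to 3.69%) of weaker peaks, and chromosome 9 held 14 (5.53%, 3.33 to 9.07%) against 3.73% (2.89 to 4.80%). Counts of this size leave wide intervals, and a higher share on these chromosomes was not separable from counting error. At a floor of 60 the direction turned for chromosome 20, with 1 of 43 members (2.33%) against 2.99% of weaker peaks, and for chromosome 10, with 0 members. Chromosome 7 then held 6 of the 43 (14.0%). The members of chromosome 20 included the neighbours chr20:31208971-31209208 and chr20:31282997-31283243, and those of chromosome 9 included chr9:130924634-130925112 and chr9:131077952-131078313.

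The ratio was lowest on chromosomes 21 (0.216), X (0.336), 3 (0.415), 13 (0.465) and 14 (0.549). Of these, chromosome 3 had the most shared peaks, with 7 members among 109 (6.42%, 3.15 to 12.7%). It was the 1 chromosome of 23 whose interval did not reach the overall 14.2%. With 23 chromosomes compared, 1 interval of this kind is not a finding about chromosome 3. None of its 7 members scored 60 or more in every list. Chromosome 21 held 1 member among 29 shared peaks, chr21:11085176-11085403, and the nearest other shared peak was 15118 kb away. Chromosome X held chrX:118756012-118756131 among 19 shared peaks.

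**Figure D3:**
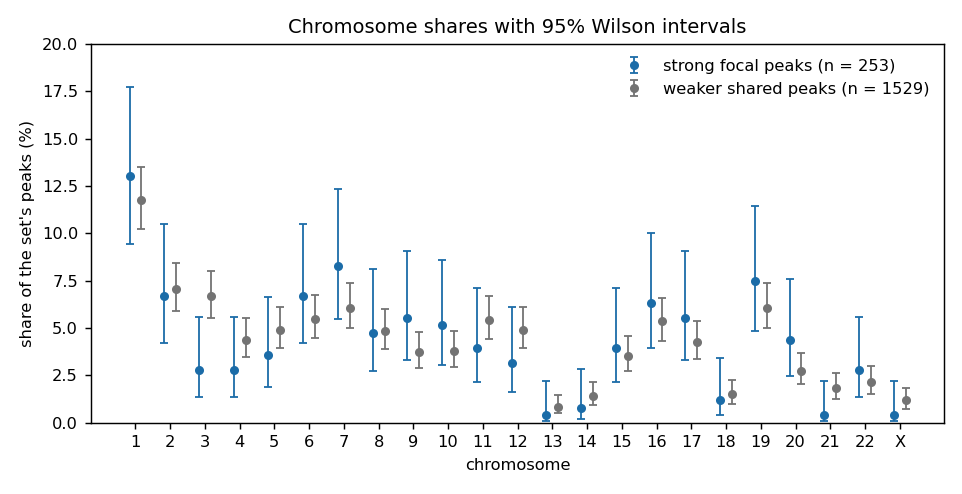
Share of each set of peaks on each chromosome (vertical axis, percent; bars are 95% Wilson intervals) for 253 strong focal SRA peaks and 1529 weaker shared peaks. The bars of both sets overlap on every chromosome, with the narrowest overlap on chromosome 3.

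Per length, members were densest on chromosome 19, with 3.22 per 10 Mb between the first and last peaks of any list, followed by chromosome 22 with 2.03 and chromosome 16 with 1.78. Weaker shared peaks had their highest densities on the same 3 chromosomes, with 15.8, 9.55 and 9.11 per 10 Mb. Chromosome X was lowest for both, with 0.0664 and 1.20. Chromosome 19 is known as the most gene-dense human chromosome, and gene density was not measured in the build of the peaks.

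Peaks were also counted near the first and last peaks of chromosomes, which are not always chromosome ends. Within 5 Mb of the first or last peak of a chromosome lay 53 members (20.9%, 16.4 to 26.4%) and 215 weaker shared peaks (14.1%, 12.4 to 15.9%). In LacZ lists 1, 2 and 3, with peaks over 1000 bp included, the shares were 11.5% (10.3 to 12.8%), 10.7% (9.59 to 12.0%) and 12.5% (9.14 to 16.8%). The interval of the members did not overlap that of weaker peaks, of LacZ list 1 or of LacZ list 2, and overlapped that of LacZ list 3. The gap from weaker peaks was narrow, with limits of 16.4 and 15.9%. Neighbouring members were counted as independent, so no difference at chromosome ends was read from it. The 53 members include chr13:19645792-19645912, chr21:11085176-11085403 and the group of 5 on chromosome 22 from 19460993 to 20279020. These lie near the first peak of their chromosome and many Mb from its end. The share without them was not calculated. The window of 5 Mb was chosen after the positions were seen, so these intervals are descriptive.

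Examples came from several chromosomes. The short arm of chromosome 7 began with chr7:918944-919170, chr7:1210489-1210732, chr7:1924901-1925117 and chr7:2303771-2303983, which had 5 weaker shared peaks between them and lowest scores of 50.4 to 63.3. The long arm of chromosome 16 ended with a group of 5 members over 2005 kb, from chr16:87933816-87933968 to chr16:89938264-89938611, the strongest of them. On the long arm of chromosome 17, the highest member of all was followed by chr17:79654071-79654244 and chr17:81047301-81047435, with lowest scores of 52.3 and 50.5. High and low members thus stood side by side near the ends.

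Next to the widest peak-free stretch of their chromosome, members were few. Within 1 Mb of it lay 7 members (2.77%, 1.35 to 5.60%) and 27 weaker peaks (1.77%, 1.22 to 2.56%), and within 2 Mb, the window looked at first, lay 9 (3.56%) and 46 (3.01%). The measure and its windows were chosen after the positions were seen. The 7 were the peaks on chromosomes 6 and 7 named above, chr7:61968889-61969099, chr21:11085176-11085403, chr19:23959395-23959577, chr16:33293813-33294270 and chr4:24936558-24936737. Of these, 4 had scores differing by more than 20 units between lists, namely those on chromosomes 6, 7 and 16. The stretches were taken from the lists themselves and were not compared with the assembly.

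Members were sparse, at 0.862 per 10 Mb between the first and last peaks of the chromosomes, and the gaps between them depend on this number. The median distance to the nearest other member was 2378 kb (interquartile range 586 to 6725 kb, extremes 0.044 and 46470 kb) over the 250 members that shared a chromosome with another. Within 50 kb, 5 members (1.98%, 0.847 to 4.54%) had another. Weaker peaks had a member within 50 kb in 2.88% (2.15 to 3.84%) and at a median of 2360 kb. Within 1 Mb the shares were 31.2% (25.8 to 37.2%) of members and 32.3% (30.0 to 34.7%) of weaker peaks, with overlapping intervals. At shorter range the order was the other way, with another member within 1 kb of 4 members (1.58%, 0.617 to 3.99%) and a member within 1 kb of 3 weaker peaks (0.196%, 0.0668 to 0.575%). The 4 members are those of the 2 close groups described next, apart from chr1:201225906-201225991, so the short gaps rest on 2 places. Joining over gaps of up to 50 kb therefore gave 250 positions, of which 2 held more than 1 member. The share with another member within 50 kb was 8.96% without the width limit, and 5.77, 6.22 and 3.56% without SRA list 1, 2 and 3, respectively, settings that also raised the number of members.

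The 2 close groups were distinct in make-up. On chromosome 1, chr1:201225906-201225991, chr1:201227149-201227415 and chr1:201227460-201227642 lay within less than 2 kb, separated by 1.16 and 0.044 kb. The middle peak scored 91.3, 89.9 and 94.6, whereas the outer ones scored 52.5, 51.4 and 54.7 and 50.7, 50.2 and 51.3. One more member, chr1:201293070-201293244, followed 65.4 kb further on, and the nearest peak of LacZ list 1 was 73.4 kb from the middle peak. On chromosome 7, chr7:61968889-61969099 scored 75.8, 88.8 and 51.5 and was separated by 0.102 kb from the sixth-ranked member. Both peaks of this pair were highest in list 2 and lowest in list 3, so the order of the lists was the same in both.

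At gaps of up to 100 kb there were 8 groups with 18 members. The closest pair beyond the 2 groups above, chr22:20211741-20212592 and chr22:20278350-20279020, was 65.8 kb apart. Further pairs were chr20:31208971-31209208 with chr20:31282997-31283243 (73.8 kb), chr16:89862165-89862295 with chr16:89938264-89938611 (76.0 kb) and chr5:1333394-1333851 with chr5:1414498-1414653 (80.6 kb). The last were chr2:11128153-11128238 with chr2:11209298-11209399 (81.1 kb) and chr16:53127180-53127332 with chr16:53211951-53212073 (84.6 kb). At gaps of up to 1 Mb, 79 members fell into 31 groups, the largest of them 3 groups of 5 on chromosomes 1, 16 and 22. The group on chromosome 22 spanned 818 kb and also held 6 weaker shared peaks, 8 peaks of LacZ list 1 and 7 of LacZ list 2, whereas the group on chromosome 1, over 328 kb, held 3, 2 and 0.

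Other shared peaks were nearer to members than to weaker peaks. The nearest other shared peak of either class was at a median of 192 kb from members and 320 kb from weaker peaks. It was within 100 kb for 81 members (32.0%, 26.6 to 38.0%) and for 366 weaker peaks (23.9%, 21.9 to 26.1%), and within 1 Mb for 87.4% (82.7 to 90.9%) and 79.5% (77.4 to 81.4%). Within 50 kb the shares were 16.6% (12.5 to 21.7%) and 14.9% (13.2 to 16.8%), with overlapping intervals, as they were within 10 kb, at 5.53% (3.33 to 9.07%) and 4.19% (3.29 to 5.31%). Within 1 kb, 7 members (2.77%, 1.35 to 5.60%) and 9 weaker peaks (0.589%, 0.31 to 1.12%) had such a neighbour. The intervals were thus apart at 1 kb, 100 kb and 1 Mb and overlapped at 10 and 50 kb. Members of 1 region are not independent, but these intervals treat all peaks as independent and are too narrow for that reason.

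Distances to LacZ peaks were compared list by list. The nearest peak of LacZ list 1 was at a median of 162 kb from members and 220 kb from weaker peaks, whereas for LacZ list 2 the medians were 259 and 226 kb. For LacZ list 3, with its 290 peaks, they were 2327 and 2350 kb. For LacZ list 2 the median alone was larger for members, since both quartiles were smaller (69.3 and 517 kb against 78.6 and 560 kb) and 20.2% of members (15.7 to 25.5%) against 17.3% of weaker peaks (15.5 to 19.3%) had a peak within 50 kb. For LacZ list 1 these shares were 22.9% (18.2 to 28.5%) and 16.7% (15.0 to 18.7%). The intervals overlapped at 50 kb in both lists, and within 100 kb of a peak of LacZ list 2 lay 30.8% of members and 30.3% of weaker peaks, so no direction was read for that list. Taking any LacZ list, 25 members (9.88%, 6.78 to 14.2%) and 131 weaker peaks (8.57%, 7.27 to 10.1%) had a LacZ peak within 10 kb. Within 1 kb these numbers were 4 (1.58%, 0.617 to 3.99%) and 11 (0.719%, 0.402 to 1.28%), and the intervals overlapped at both distances.

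**Figure D4:**
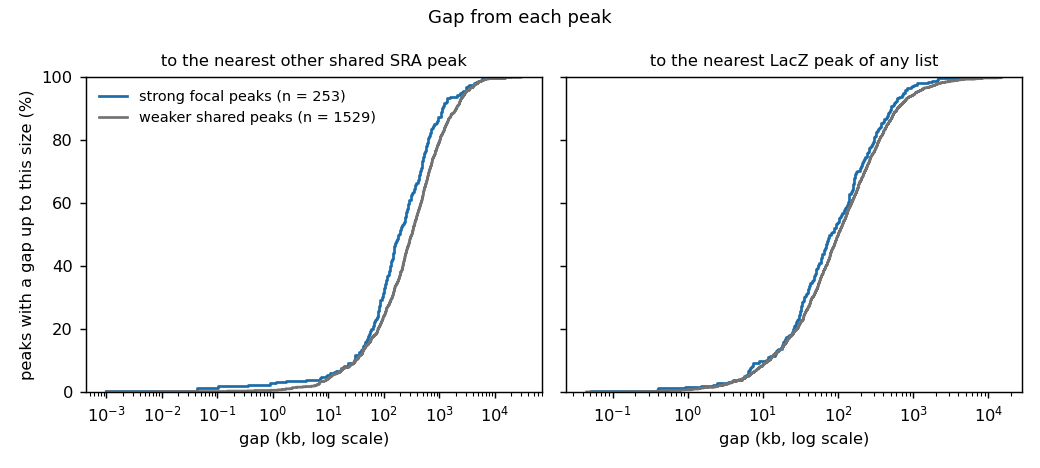
Cumulative share of peaks (vertical axis, percent) with a gap up to a given size (horizontal axis, kb, log scale) to the nearest other shared SRA peak and to the nearest LacZ peak of any list, for 253 strong focal SRA peaks and 1529 weaker shared peaks. The curve of strong peaks runs ahead of the other most clearly between about 100 and 1000 kb from a shared peak, with medians of 192 and 320 kb, and the curves lie closer for LacZ peaks, with medians of 79.9 and 101 kb.

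For the erythroid and leukocyte genes that the study names, distances to members were not measured, because no gene annotation in hg19 was used here. The 33 named genes considered, and SRA1 in addition to them, were all found in the RefSeq annotation of GRCh38.p14, which was used for their chromosomes alone. They lie on 16 chromosomes that together held 199 of the 253 members. This sets an upper limit on which members can be near them and places no member at a gene. The share of weaker shared peaks on the 16 chromosomes was not calculated, so nothing about members was read from the count. The same holds for the counts per chromosome below, since the intervals of both shares overlapped on every chromosome.

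Among genes of oxygen transport, the beta-type globin genes HBB, HBD, HBG1 and HBE1 lie on chromosome 11, with 10 members, the alpha-type genes HBA2 and HBM on chromosome 16, with 16, and CYGB, which encodes cytoglobin, on chromosome 17, with 14. The alpha-globin cluster is known to lie close to the end of the short arm of chromosome 16. The first member of that arm was chr16:221854-222004, 151 bp wide with scores of 57.1, 58.4 and 58.4, followed by chr16:3545481-3545706. The beta-globin cluster is known to lie toward the end of the short arm of chromosome 11. The first members of that arm were chr11:774364-774564, with scores of 60.3, 59.6 and 60.3, and chr11:8948198-8948272. They were 8174 kb apart with no member between them. These members were picked by arm after their positions were seen, and whether any of them lies at a globin gene was not tested.

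Of the genes of heme synthesis, CPOX lies on chromosome 3, PPOX on chromosome 1, UROS on chromosome 10 and ALAS2, which encodes the erythroid form of the first enzyme of the pathway, on chromosome X. The 1 member of chromosome X was on its long arm, and ALAS2 is known to lie on the short arm. The iron genes TF and TFRC, for transferrin and its receptor, are both on chromosome 3, with 7 members, and the iron transporter gene SLC11A2 is on chromosome 12, with 8. TFRC is known to lie close to the end of the long arm, where the last members were chr3:194831964-194832196, with scores of 51.2, 60.5 and 56.9, and chr3:195781639-195781928, with 54.0, 59.5 and 68.6. Their distance from TFRC was not measured.

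Of the erythrocyte genes, the water channel gene AQP1 lies on chromosome 7 (21 members), AHSP, for the chaperone of alpha-globin, on chromosome 16, the membrane protein gene EPB42 on chromosome 15 (10) and the erythroid transcription factor gene KLF1 on chromosome 19 (19). The proliferation genes TAL1, ERBB3 and BMX lie on chromosomes 1, 12 and X. Of the immune and inflammatory genes, JUN and AIM2 lie on chromosome 1, CCL2 and CCR7 on chromosome 17, CXCL2 and CXCL8 on chromosome 4, FTH1 on chromosome 11, IL1RN on chromosome 2, LCP2 on chromosome 5 and THBS1 on chromosome 15. FOS is on chromosome 14, where chr14:55711800-55711915 and chr14:102181775-102181923 were the 2 members. LY6E, shown by the study beside TFRC, is on chromosome 8 with 12 members, and SRA1 itself is on chromosome 5 with 9.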

How the data were processed

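The authors mapped the ChIRP reads on hg19 and called peaks with MACS, giving 1 list for every SRA and LacZ sample. The submitters' processing notes name CASAVA 1.8.2, MACS and deepTools, and the MACS version and the control of each list are not given in the sources used here. Each peak carries a deposited score. Its lowest value is 40, which is 10 times −log10 of a p-value of 0.0001, although the column heading says −log10, so the scale rests on this minimum. Scores were used to choose and rank peaks and were not tested. The members and lists were chosen with earlier results of these data known.

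Gaps were measured between the nearest ends of peaks, and 1 shared base counted as overlap. The SRA lists, which share coordinates, were counted as 1 sample. Shares have 95% Wilson intervals for counting error, and read depth is unknown. Regions named were the 20 members with the highest lowest score, the highest of each chromosome, the closest groups and pairs, the 3 on either side of the floor and the 3 widest and narrowest; other regions named were chosen after their values were seen. The alternatives were other score floors, width limits, sharing and LacZ rules, joining gaps, and each list left out. Peaks were not assigned to genes and no sequence was read, since the genome given was GRCh38 and 186 peaks lay past its last annotated gene on their chromosome. One gene of the erythrocyte list is not reported here. Gap and overlap counting was tested on simulated peaks. Calculations used numpy 2.4.6, scipy 1.17.1 and pandas 2.3.3 in Python 3.11.15, and plots used matplotlib 3.10.9.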

Additional observations from a re-analysis of the deposited data

Results flagged for a closer look

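Outside chromosomes 1 to 22 and X, 8 peaks on chromosome M had identical coordinates in the 3 SRA lists and a score of at least 50 in each, with lowest scores of 90.5 to 260.8. They are listed because they lie outside the set described. The LacZ lists held 0 peaks on chromosome M, so there was no LacZ score to compare with them. On unplaced and other contigs, 5 peaks met the same conditions on coordinates and score, of which 2 overlapped a LacZ peak, and the LacZ lists held 22 peaks there. The reason was not tested.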

How the results depend on the processing

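The number of members was 43, 8 and 2 with floors of 60, 75 and 100, 517 with a mean score of at least 50, and 448 with identical coordinates in at least 2 of 3 SRA lists. Leaving out 1 list at a time gave 253 to 433, with 433, 402 and 422 without SRA lists 1, 2 and 3 and 253 without any 1 LacZ list. It was 228 to 279 under the other width and LacZ settings.

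The share of members on chromosome 1, 13.0%, stayed inside its interval under 14 of 16 alternatives, and was 18.6% at a floor of 60 and 0% at 100, where 2 members were left. Leaving out 1 list gave 12.2 to 14.9%. The share with another member within 50 kb, 1.98%, was 0% at floors of 60, 75 and 100, 8.96% without a width limit, 7.81% with 2 of 3 lists and 7.12% for gaps of 100 kb. Leaving out 1 list gave 1.98 to 6.22%, with 5.77 and 6.22% without SRA lists 1 and 2. The cause was not tested. Both shares were picked to stand for their result after the values were seen.

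Other distances to start sites were not run, since no annotation of hg19 was used. No paired analysis was possible because no result comes from a test. Scores of 3 lists with shared coordinates give no replicate error, and without read depth the precision of a score is unknown.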
